A study of Arabidopsis thaliana with 12 samples.

Results

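The transcriptome of cbp80 seedlings was set against that of wild type. The cbp80 mutant is affected in the large subunit of the nuclear cap-binding complex, and the comparison comprised the 3 libraries labelled cbp80 and the 3 labelled WT, out of 12 RNA-seq libraries in the series (3 per genotype, the others being cbp20 and se-1). Members were taken by label alone. All plants were Arabidopsis thaliana of the Col-0 ecotype, grown without treatment on MS medium at reduced strength under constant light for 16 days, and whole seedlings were gathered on ice over about 30 minutes before freezing. The labels name the mutant by its gene and give no allele, and no transgene is named for any genotype. RNA was selected for poly(A) tails, so each value measures polyadenylated transcripts of a mixture of all seedling organs. In such bulk samples, fewer cells of a type and less RNA per cell cannot be told apart.

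The cap-binding complex is a heterodimer of CBP20, which contacts the 5′ cap, and CBP80, a large scaffold that holds CBP20 and recruits other proteins. It binds nascent transcripts of RNA polymerase II and takes part in splicing, in 3′ end formation, in export and in RNA turnover. In plants it works together with SERRATE in the processing of primary microRNA (miRNA) transcripts by the nuclease DCL1, and Arabidopsis cap-binding mutants are known for their hypersensitivity to abscisic acid (ABA), their drought tolerance and their early flowering.

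The 6 libraries held between 19503427 and 24740856 read pairs assigned to genes, and within each genotype every pair of libraries correlated with a Pearson r of at least 0.99 across genes. CBP80 itself, listed as ABH1, had 38.9, 31.6 and 38.8 CPM (read pairs of the gene per 1000000 of the library) in cbp80, against 36.1, 43.9 and 42.1 CPM in WT. Its values overlapped between the genotypes (log2 fold change -0.16 ± 0.09 SE, edgeR adjusted p = 0.174), so its read count did not check the label. CBP20 (log2 fold change 0.10) and SE (0.12) did not pass the test either. Summed leaf markers lay at 21570 to 23850 CPM in cbp80 and 22140 to 22800 CPM in WT, root markers at 65.7 to 77.5 and 58.4 to 67.2 CPM, and the 3 seed markers stayed under 0.5 CPM in every library. The root sum includes IRT1, an iron uptake gene that rose. The other 3 root markers all had a negative log2 fold change, and of these only PHT1;1 (-0.27) passed the test. Meristem markers summed to 17.97 to 20.98 CPM in cbp80 and 22.7 to 24.3 CPM in WT. Most of this sum was KNAT1, the 1 meristem marker called lower. With all 12 libraries scaled together, it had 15.1, 17.3 and 15.2 CPM in cbp80 and 20.2, 20.7 and 20.5 CPM in WT. STM overlapped between the genotypes, and CLV3 was not tested.

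Of 20543 genes tested, 4125 were higher and 3830 lower in cbp80 at an adjusted p under 0.05 (edgeR quasi-likelihood test with Benjamini-Hochberg adjustment). This was 38.7% of tested genes (20.1% higher and 18.6% lower), and 828 of the rises and 578 of the falls were at least 2-fold. With scaling by library size only, the split became 3130 higher and 5529 lower, and the median log2 fold change of all genes was then -0.08 in place of -0.01. The 3 cbp80 and the 3 WT values did not overlap for 49.6% of tested genes, so an absence of overlap in a single gene is common here. List medians below are to be read against these 2 medians of all genes.

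**Figure D1:**
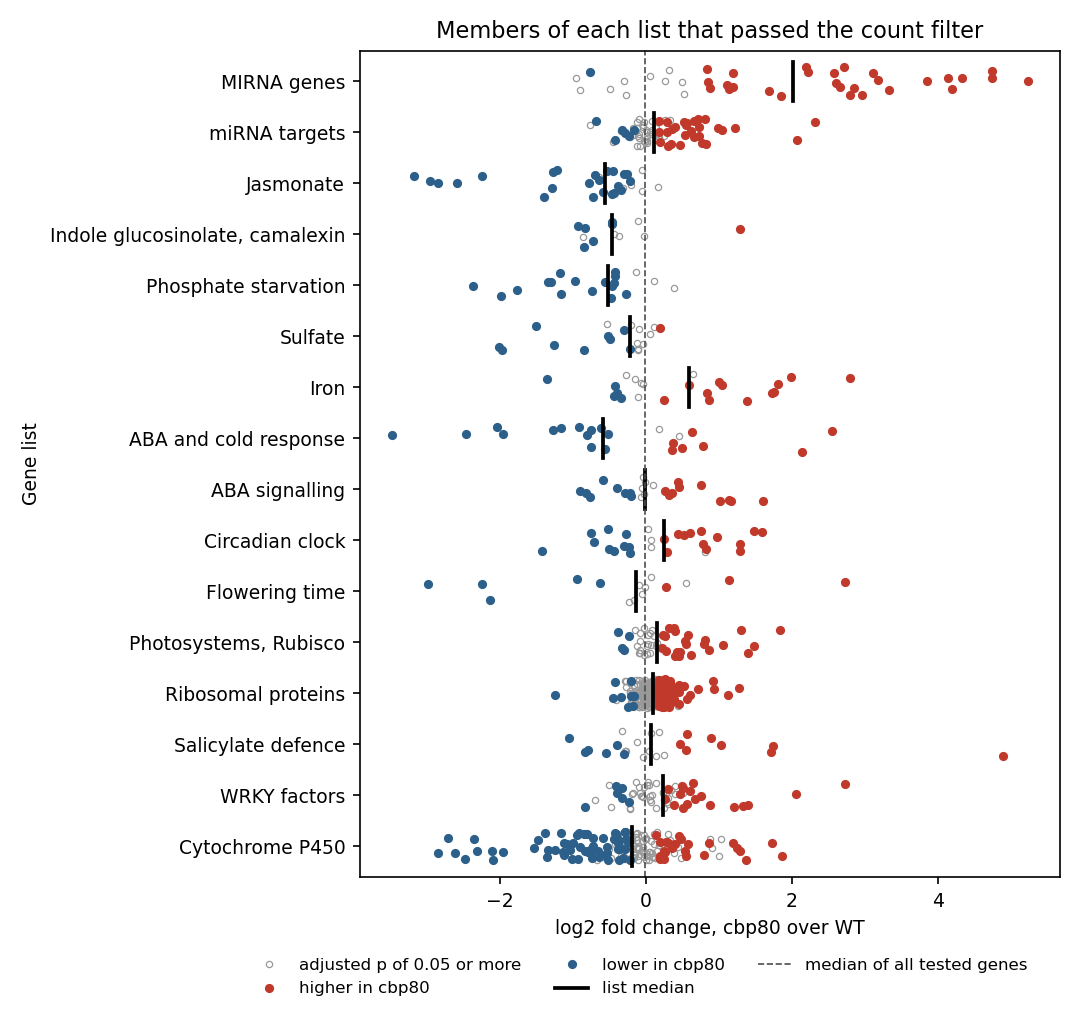
Each point is 1 tested gene of a list, placed at its log2 fold change of cbp80 over WT. Filled points passed the test, bars are list medians and the dashed line is the median of all tested genes. FLC and MIR390a, which have a genotype with no reads, are left out of the points but counted in the medians. MIRNA genes (median 2.02) and iron genes (0.59) lie to the right, while jasmonate (-0.56), phosphate (-0.52) and ABA and cold response genes (-0.59) lie to the left.

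Primary miRNA transcripts were mostly higher. Plant MIRNA genes are transcribed into long capped and polyadenylated precursors, whose reads fall on the annotated hairpins counted here. All 325 annotated hairpins together gathered 195, 212 and 205 CPM in cbp80, against 75.1, 69.4 and 72.4 CPM in WT. Of the 157 hairpins with any read, 121 had the higher mean in cbp80 and 36 in WT. Only 40 passed the count filter, and 11 of these had no WT library with 10 reads, so they passed through cbp80 alone and could only be higher. Among the 40, 29 rose and 1 fell, with a median log2 fold change of 2.02. The 21 hairpins with at least 10 reads in all 3 WT libraries held 12 of the rises and the single fall.

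The mature miRNAs of the precursors described here are shown first, since they define the families, with the seed (bases 2 to 8) in capitals. They come from RefSeq on TAIR10.1 and are written 5′ to 3′. The miR156 and miR157 families share the run GACAGA near their 5′ ends, shifted by 1 base, and so differ in their seeds.
miR156a-5p, miR156c-5p and miR156d-5p: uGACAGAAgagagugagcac
miR157a-5p and miR157c-5p: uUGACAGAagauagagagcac
miR158a-3p: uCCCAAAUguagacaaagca
miR159b-3p: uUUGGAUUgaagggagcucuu
miR161.1: uGAAAGUGacuacaucggggu
miR162a-3p: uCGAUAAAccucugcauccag
miR163: uUGAAGAGgacuuggaacuucgau
miR164b-5p: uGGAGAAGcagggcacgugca
miR167a-5p and miR167b: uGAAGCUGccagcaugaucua
miR168a-5p: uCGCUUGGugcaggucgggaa
miR171a-3p: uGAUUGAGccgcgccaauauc
miR171b-3p and miR171c-3p: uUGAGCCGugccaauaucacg
miR173-5p: uUCGCUUGcagagagaaaucac
miR390a-5p: aAGCUCAGgagggauagcgcc
miR398c-3p: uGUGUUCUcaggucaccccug
miR399c-3p: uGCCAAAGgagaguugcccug

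Among these precursors, MIR158a had the highest fold change of those with reads in all WT libraries. It gathered 5.55, 7.62 and 8.10 CPM in cbp80, against 0.224, 0.0958 and 0.228 CPM in WT (log2 fold change 5.23 ± 0.28, edgeR adjusted p = 5.72e-09). MIR168a, whose mature product targets AGO1, the main miRNA effector, had 13.5, 18.16 and 16.5 CPM in cbp80 and 0.942, 0.719 and 0.731 CPM in WT (4.32 ± 0.17). MIR171a, a family that targets the GRAS-domain HAM genes, had 4.45, 4.84 and 4.49 CPM in cbp80 and 0.314, 0.192 and 0.228 CPM in WT (4.19 ± 0.24). In all of them the lowest cbp80 library lay far above the highest WT library. The miR156 and miR157 precursors, whose products restrain SPL transcription factors and with them the change from juvenile to adult growth, rose at 5 loci. MIR156c stood at 17.5, 19.2 and 16.8 CPM in cbp80 and 1.12, 1.44 and 1.14 CPM in WT (3.85 ± 0.13). MIR157c stood at 32.9, 32.5 and 37.1 CPM in cbp80 and 8.61, 6.52 and 7.22 CPM in WT (edgeR adjusted p = 9.89e-10). The log2 fold changes of MIR156d, MIR157a and MIR156a were 3.33, 3.11 and 2.66. MIR164b (2.96), MIR171c (2.79), MIR167a (2.57), MIR399c (2.22), MIR171b (1.19) and MIR159b (1.14) rose as well.

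The precursors MIR390a and MIR173, whose products start trans-acting siRNA production, were nearly silent in WT. MIR390a, whose product acts on TAS3, had 19, 28 and 14 reads in cbp80 and 0 reads in each WT library, a level at least 6.97-fold higher when WT is set at a floor of 3 reads per library. MIR173, which acts on TAS1 and TAS2, had 0.681, 0.564 and 0.457 CPM in cbp80 and 0, 0.0479 and 0 CPM in WT (4.74 ± 0.76). MIR161, whose product targets pentatricopeptide repeat mRNAs, had 1.100, 0.941 and 0.873 CPM in cbp80 and 0.0897, 0 and 0 CPM in WT (4.73 ± 0.62). These WT levels rest on 0 to 2 reads per library, so the sizes of these rises are loosely bounded: MIR173 gave 6.62 without WT replicate 2 and MIR161 7.38 without WT replicate 1. MIR390a, MIR173 and MIR161 also passed the count filter through cbp80 alone and could only be higher. Not every precursor moved. MIR162a, whose product targets DCL1, overlapped between the genotypes at 3.25, 4.28 and 2.37 CPM in cbp80 and 2.87, 3.59 and 2.97 CPM in WT (0.06 ± 0.20, edgeR adjusted p = 0.840). MIR167b, which encodes the same mature sequence as MIR167a, had a log2 fold change of 0.52 ± 0.32 that missed the threshold. MIR163 was the 1 hairpin that fell, with 2.57, 1.74 and 1.99 CPM in cbp80 and 3.54, 3.59 and 3.52 CPM in WT (-0.77 ± 0.18, edgeR adjusted p = 0.00337).

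**Figure D2:**
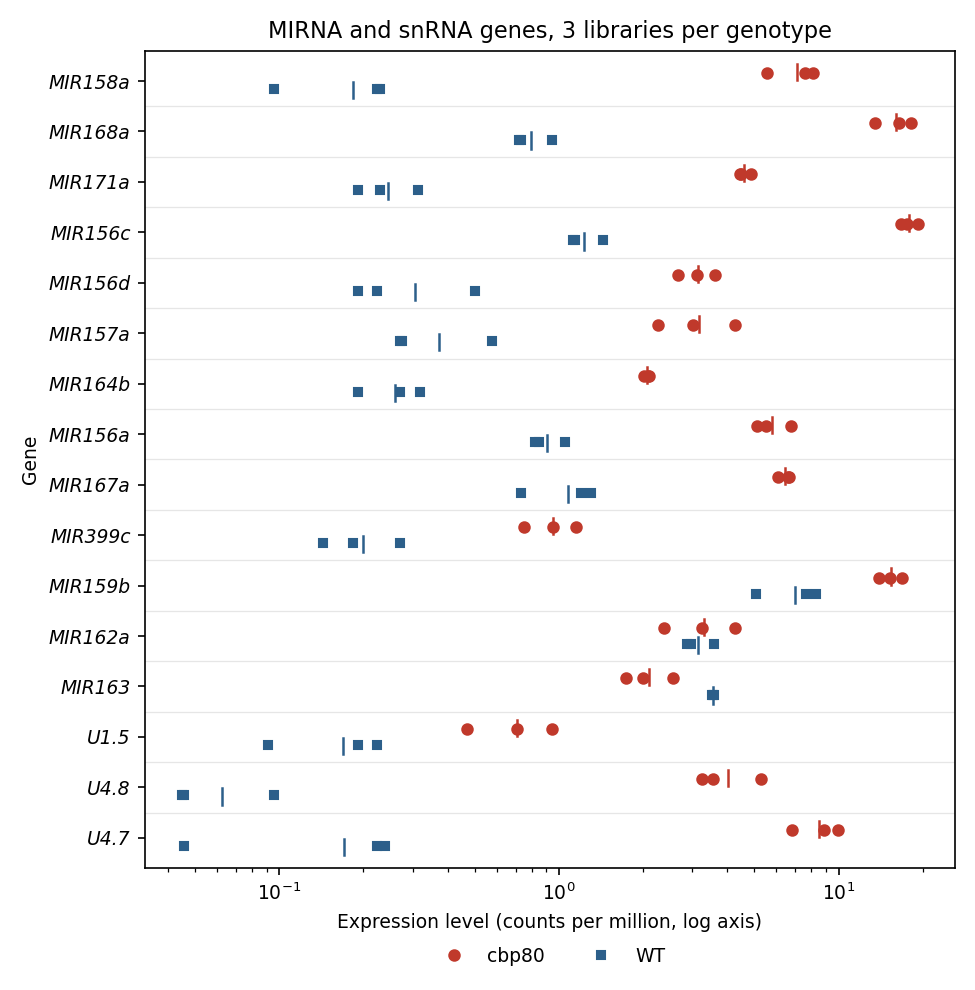
Expression level in CPM (log axis) of 13 MIRNA and 3 snRNA genes in each of the 3 cbp80 libraries (circles) and the 3 WT libraries (squares), with a tick at each mean. From MIR158a down to MIR159b the cbp80 points lie to the right of all WT points, those of MIR162a overlap, and those of MIR163 lie to the left.

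Transcripts beside risen MIRNA genes were often higher too. This set was looked at after the values were seen and is given as a description. Within 500 bases of the 29 risen hairpins, 12 other genes were tested, of which 7 rose and 1 fell (median log2 fold change 1.35, against a background of 20.1% of tested genes rising). AT4G06880, a long non-coding RNA on the strand opposite MIR168a, had 31.0, 33.4 and 30.8 CPM in cbp80 and 1.93, 2.35 and 2.83 CPM in WT (3.74 ± 0.11), and IQD20 beside MIR171a had a log2 fold change of 2.61. The 1 that fell was the nitrate transporter gene NRT2.7 (-0.95), beside MIR398c. The other risen neighbours lie on the same strand as their hairpin: AT3G48200 (MIR861), AT5G10946 (MIR156d), AT3G61898 (MIR166b), and AT3G13403 and AT3G13404 (both MIR169a). Reads of a precursor that extends past its hairpin and reads of such a neighbour cannot be told apart. On the opposite strand this is because strand was not used in the counting.

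Other small non-coding RNA classes were higher in these poly(A) libraries. Spliceosomal snRNAs and most snoRNAs normally carry no poly(A) tail, and a cap-binding complex bound to their transcripts is known in animals to direct their 3′ end formation. These lists were taken from the annotation after values were seen. The 82 snRNA genes together had 16.7, 22.8 and 19.3 CPM in cbp80, against 2.15, 1.87 and 1.19 CPM in WT, and the 287 snoRNA genes had 109, 121 and 118 CPM in cbp80, against 70.4, 56.9 and 68.6 CPM in WT. Of the snRNA genes with any read, 25 had the higher mean in cbp80 and 6 in WT. For snoRNA genes the counts were 136 and 44. U4.7, a gene of the U4 snRNA that pairs with U6 in the spliceosome, had 6.81, 9.97 and 8.85 CPM in cbp80 and 0.224, 0.240 and 0.0457 CPM in WT (log2 fold change 5.62 ± 0.30, edgeR adjusted p = 4.45e-09). U4.8 had 3.56, 5.27 and 3.24 CPM in cbp80 and 0.0449, 0.0958 and 0.0457 CPM in WT (5.90 ± 0.41). The 5 snRNA genes that passed the filter all rose, among them U2.5 (3.83), U4atac of the minor spliceosome (3.90) and U1.5 (2.01), but none had a WT library with 10 reads, so each passed through cbp80 alone. U4atac had no read in WT replicate 2, and its log2 fold change was 4.96 without WT replicate 1, and that of U2.5 was 4.67 without WT replicate 3. Of 50 snoRNA genes tested, 26 rose and 0 fell at an adjusted p under 0.05 (edgeR). Of these 50, 11 had no WT library with 10 reads, so they passed through cbp80 alone and could only be higher. Of the 20 with at least 10 reads in all WT libraries, 8 rose and 0 fell. SNOR105, which passed through cbp80 alone with 3, 2 and 1 reads in WT, had 1.57, 1.93 and 1.99 CPM in cbp80 and 0.135, 0.0958 and 0.0457 CPM in WT (4.24 ± 0.38). Since snRNA genes exist in near-identical copies and pairs with several alignments were not counted, the share of each copy is uncertain.

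The targets of miRNAs leaned higher. Plant miRNAs cut or repress mRNAs that pair with them closely. Of 77 listed targets, 72 were tested, 28 rose and 6 fell, with a median log2 fold change of 0.11 (0.04 with library size only, where 21 rose and 13 fell). SPL13A, a target of miR156, had 2.15, 1.55 and 1.45 CPM in cbp80 and 0.224, 0.431 and 0.365 CPM in WT (2.31 ± 0.32). With 5, 9 and 8 reads in WT, SPL13A passed the count filter through cbp80 alone and could only be higher. SPL10, of the same family, had a mean of 24.4 ± 1.1 CPM in cbp80 and 13.8 ± 1.0 CPM in WT (0.83 ± 0.08, SD, n = 3 each). GRF8, a growth-regulating factor targeted by miR396, rose by 2.06 on the log2 scale (2.68 without WT replicate 2), NAC6, a senescence regulator targeted by miR164, by 1.22, and the boundary gene CUC2, targeted by miR164 too, by 1.04. CSD2, a superoxide dismutase targeted by miR398, had 36.0, 37.1 and 38.1 CPM in cbp80 and 21.0, 19.1 and 16.3 CPM in WT (0.98 ± 0.08). The auxin response factor ARF8 rose by 0.71 and the HD-ZIP III gene PHB by 0.53. PHO2, the target of miR399, went the other way, with 177, 178 and 165 CPM in cbp80 and 215, 224 and 256 CPM in WT (-0.42 ± 0.07). Transcripts of the TAS loci differed among themselves. TAS3 had 21.6, 24.4 and 25.7 CPM in cbp80 and 15.6, 13.4 and 13.2 CPM in WT (0.77 ± 0.09), whereas TAS2 (-0.90 ± 0.10) and TAS1B (-0.96 ± 0.16) fell, and TAS1A and TAS1C did not pass the test. Of 16 genes of the miRNA machinery, 2 rose, AGO2 (0.72), an antiviral Argonaute, and CPL1 (0.53), a phosphatase that acts on the DCL1 partner HYL1. AGO1 fell by 0.17, a call lost on omission of any cbp80 library (adjusted p = 0.0549 to 0.0834), and DCL1 itself averaged 60.5 CPM in both genotypes.

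The largest changes of single genes at 5 CPM or more included a transporter and cell-wall, lectin and defence genes. PGP10 (ABCB10), an ABC transporter of the P-glycoprotein family, had 18.8, 16.4 and 16.99 CPM in cbp80 and 0.538, 0.192 and 0.548 CPM in WT (5.32 ± 0.19, edgeR adjusted p = 1.82e-10). AGP30, an arabinogalactan protein of the root cell wall, had 20.5, 22.2 and 31.7 CPM in cbp80 and 2.87, 2.35 and 1.096 CPM in WT (3.56 ± 0.23). Non-coding AT2G07042 rose by 3.76 and AT4G30975, which overlaps MIR156b, by 3.41. In the other direction, AT5G26270, an uncharacterised protein, had 8.38, 8.37 and 9.68 CPM in cbp80 and 363, 365 and 302 CPM in WT (-5.28 ± 0.10, edgeR adjusted p = 4.93e-13). PP2-A1, a lectin of the phloem sap, had 2.20, 3.01 and 2.58 CPM in cbp80 and 64.7, 62.5 and 71.3 CPM in WT (-4.66 ± 0.10). The adjacent PP2-A2 did the reverse, with 4.24, 3.998 and 4.36 CPM in cbp80 and 1.08, 0.719 and 0.822 CPM in WT (2.26 ± 0.20). For PP2-A1, 18.8% of exon bases are shared with another gene. Also among the 10 largest falls at that level were AT5G24240, a phosphatidylinositol 4-kinase-like gene (-3.46), AT5G35480 (-3.12), the copper amine oxidase AT1G31690 (-3.09), the myrosinase-binding protein MBP1 (-2.97) and the lipid kinase PIP5K5 (-2.90).

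Genes of the jasmonate pathway were lower from synthesis to response. Jasmonates are made from linolenic acid through lipoxygenases, allene oxide synthase and cyclase and OPR3, are conjugated by JAR1 to the active isoleucine form, and are sensed by COI1 together with JAZ repressors. Of 30 tested genes of a list of 32, 23 fell and 0 rose (median -0.56). The genes that did not pass were COI1, JAZ3, JAZ7, JAZ10, JAZ12, CYP94B3 and ORA59, with log2 fold changes between -0.64 and 0.17. Among synthesis genes, LOX2, the chloroplast lipoxygenase, had 127, 160 and 100 CPM in cbp80, against 1022, 1020 and 952 CPM in WT (-2.95 ± 0.13, edgeR adjusted p = 6.29e-10). AOS had 71.6, 78.9 and 63.8 CPM in cbp80 and 172, 170 and 173 CPM in WT (-1.27 ± 0.07). AOC2 fell by 1.29, OPR3 by 0.77 and JAR1 by 0.59. Every WT library lay above every cbp80 library for each of these genes. The receptor gene COI1 stayed level, at 52.4, 47.2 and 46.7 CPM in cbp80 and 50.9, 52.5 and 48.3 CPM in WT (-0.05 ± 0.06, edgeR adjusted p = 0.553). Among response genes, the vegetative storage protein VSP2 had 5.66, 8.14 and 8.31 CPM in cbp80 and 55.5, 56.6 and 48.6 CPM in WT (-2.85 ± 0.11). VSP1 fell by 2.59, LOX3 by 2.25, the repressor JAZ5 by 1.39 and the cystine lyase CORI3 by 1.21. The defensin gene PDF1.2, which answers to jasmonate with ethylene, was low in both genotypes, at 0.122 ± 0.039 CPM in cbp80 and 1.17 ± 0.25 CPM in WT (SD, n = 3 each). With 2, 2 and 4 reads in cbp80, PDF1.2 passed the count filter through WT alone and could only be lower.

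Indole glucosinolate genes moved the same way and aliphatic ones did not move together. Glucosinolates are sulfur-rich defence compounds, made in the indole branch from tryptophan. Of 12 genes for indole glucosinolates and camalexin, 6 fell and 1 rose (median -0.46). The regulator MYB34 had 32.1, 32.2 and 36.8 CPM in cbp80 and 63.6, 57.9 and 58.7 CPM in WT (-0.83 ± 0.07). CYP79B2 and CYP79B3, which convert tryptophan to its oxime, fell by 0.92 and 0.84, and CYP83B1 by 0.73. CYP81F2, which modifies the indole ring, was the 1 that rose, at 8.59, 10.7 and 9.60 CPM in cbp80 and 2.87, 4.65 and 4.34 CPM in WT (1.29 ± 0.16). The last camalexin step PAD3 (-0.43) and CYP71A13 (-0.03) did not pass. Of 18 aliphatic glucosinolate genes, 4 rose and 6 fell, and the list median changed sign with the scaling (0.03, or -0.04 with library size only). The regulator MYB76 had 17.02, 13.5 and 16.7 CPM in cbp80 and 3.63, 3.79 and 3.79 CPM in WT (2.07 ± 0.12), while the early enzyme CYP79F1 fell by 0.52.

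Phosphate starvation genes were lower and none was higher. Plants short of phosphate switch on, through PHR1, genes for uptake, for recycling of phosphate and for galactolipids and sulfolipids that replace phospholipids. Of 20 such genes, 16 fell and 0 rose (median -0.52). The non-coding AT4 RNA (AT5G03545), which sequesters miR399, had 33.99, 31.6 and 22.7 CPM in cbp80 and 109, 152 and 190 CPM in WT (-2.36 ± 0.17, edgeR adjusted p = 1.19e-07). Its relative IPS1 had 4.505, 4.05 and 2.78 CPM in cbp80 and 10.6, 17.1 and 16.9 CPM in WT (-1.99 ± 0.20). The phosphatase PS2 fell by 1.76, the phosphate sensors SPX1 and SPX3 by 1.29 and 1.18, the galactolipid synthases MGDC and MGD2 by 1.15 and 0.96, and the sulfolipid gene SQD1 by 0.73. WT replicate 1 was the lowest WT library for each of AT4, IPS1, SPX1, SPX3, PS2, MGDC and MGD2, yet still above all cbp80 libraries. PHR1 was not called, at 67.0, 69.6 and 72.9 CPM in cbp80 and 66.6, 65.3 and 62.5 CPM in WT (0.11 ± 0.06, edgeR adjusted p = 0.148). The PHR1 binding element, spelled GNATATNC and searched on both strands of the 300 bases before each gene start, was present in 6 of the 20 windows, against 6.44% of all 32546 gene windows. All 6 belonged to genes that fell.

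Sulfate starvation genes fell in part. Of 19 genes of sulfur uptake and assimilation, 9 fell and 1 rose (median -0.21). The falls were led by BGLU28, a thioglucosidase, with 0.681, 1.08 and 0.956 CPM in cbp80 and 4.13, 4.22 and 2.74 CPM in WT (-2.01 ± 0.24), and by ATSDI1 (-1.96), LSU1 (-1.51) and LSU2 (-1.26), which mark sulfur deficiency. LSU2 had 22.5, 20.0 and 21.7 CPM in cbp80 and 51.8, 50.7 and 50.8 CPM in WT. APR3, an adenylylsulfate reductase of the assimilation pathway, fell by 0.84, and the ATP sulfurylase APS1 rose by 0.20, a call lost with library size only (adjusted p = 0.0945, edgeR) and without cbp80 replicate 2 (0.0606).

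Iron uptake genes went up. Arabidopsis takes up iron by reducing it at the root surface with FRO2 and importing it with IRT1, under FIT and the Ib group of bHLH factors. Of 23 tested iron genes, 12 rose and 5 fell (median 0.59). IRT1 had 26.6, 26.6 and 24.7 CPM in cbp80 and 8.70, 8.77 and 5.71 CPM in WT (1.75 ± 0.12, edgeR adjusted p = 8.28e-08). FRO2 had 10.5, 12.1 and 10.8 CPM in cbp80 and 5.43, 6.71 and 4.11 CPM in WT (1.05 ± 0.14). The Ib factors rose, BHLH100 by 2.79, bHLH39 by 1.98 and BHLH101 by 1.81, while bHLH38 (0.64) did not pass. The rise of BHLH100 was 3.42 without WT replicate 1, and its call was lost in the fit of all 12 libraries (adjusted p = 0.0649). With 7, 1 and 4 reads in WT, BHLH100 passed the count filter through cbp80 alone and could only be higher. FRO3, the phloem transporter OPT3 and the cytochrome P450 gene CYP82C4 rose by 1.00, 0.86 and 1.72. FRU (FIT) itself was not called (-0.27 ± 0.15). The ferritins FER1 and FER4, which store iron, fell by 0.34 and 0.42, the call of FER1 being lost in the fit of all 12 libraries (adjusted p = 0.16). The nicotianamine synthase genes split, with NAS4 at 21.2, 25.8 and 22.7 CPM in cbp80 and 14.4, 11.5 and 13.2 CPM in WT (0.84 ± 0.10), and NAS1 at 19.7, 18.6 and 22.7 CPM in cbp80 and 58.8, 52.6 and 44.5 CPM in WT (-1.35 ± 0.10).

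**Figure D3:**
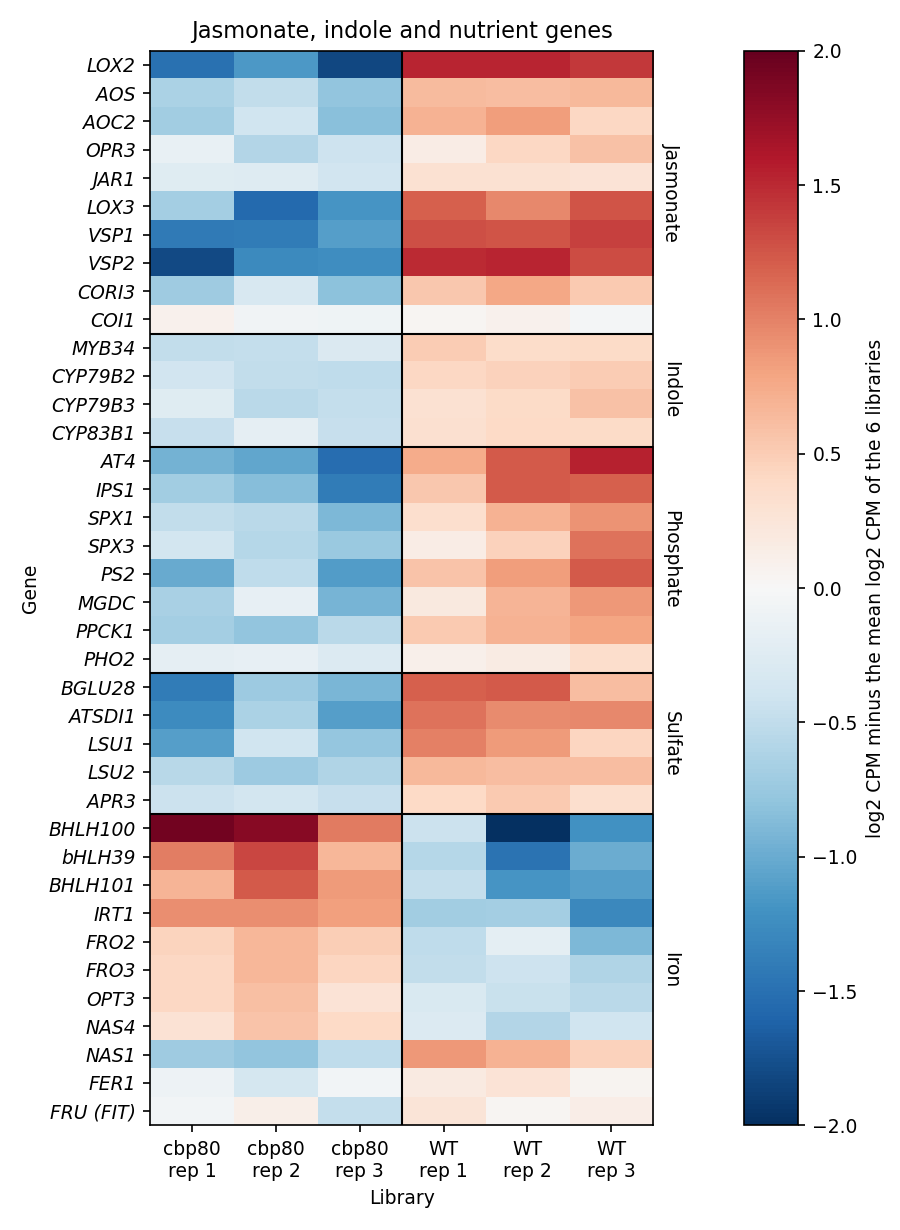
Colour gives the log2 CPM of a gene in a library minus its mean log2 CPM over the 6 libraries, with the 3 cbp80 libraries on the left and the 3 WT libraries on the right. The jasmonate, indole, phosphate and sulfate rows are blue in cbp80 and red in WT apart from COI1, and the iron rows from BHLH100 to NAS4 are the reverse, while NAS1 and FER1 are blue in cbp80.

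Cold- and ABA-responsive genes split into a group that fell and a smaller one that rose. ABA is sensed by PYR/PYL receptors that block PP2C phosphatases, and the responsive genes encode mostly hydrophilic LEA and COR proteins that protect cells during drying or freezing. Promoters of many cold genes hold the CRT/DRE core CCGAC, bound by the CBF factors, and those of many ABA genes hold the ABRE core ACGTG. All samples of both genotypes were kept on ice during collection. Of 22 tested response genes, 13 fell and 7 rose (median -0.59). COR15A, a chloroplast protein that protects membranes on freezing, had 30.5, 31.5 and 29.1 CPM in cbp80, against 358, 319 and 338 CPM in WT (-3.48 ± 0.07, edgeR adjusted p = 4.93e-13). KIN2 had 110, 106 and 161 CPM in cbp80 and 535, 492 and 519 CPM in WT (-2.03 ± 0.12). LTI78 (RD29A) had 145, 95.2 and 126 CPM in cbp80 and 442, 504 and 469 CPM in WT (-1.95 ± 0.12). COR15B (-2.46), LTI30 (-1.27), KIN1 (-1.16) and COR47 (-0.74) fell too, and no value of these genes overlapped between the genotypes. For COR15B, 29.5% of exon bases are shared with another gene.

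The CBF genes, which drive the cold regulon, were themselves lower. DREB1A (CBF3) had 1.68, 2.21 and 2.95 CPM in cbp80 and 11.3, 6.76 and 7.99 CPM in WT (-1.91 ± 0.22), CBF1 fell by 1.61 and CBF2 by 1.59. Other members of the list rose. LTI65 (RD29B) had 35.1, 13.8 and 36.4 CPM in cbp80 and 6.55, 2.54 and 10.2 CPM in WT (2.14 ± 0.37, edgeR adjusted p = 0.000363), and LEA7 had 19.4, 11.1 and 25.0 CPM in cbp80 and 3.90, 1.29 and 4.25 CPM in WT (2.55 ± 0.31). Replicate 2 of each genotype was its lowest library for both. The dehydrin RAB18 overlapped, at 102, 74.9 and 129 CPM in cbp80 and 55.7, 47.1 and 76.0 CPM in WT (0.78 ± 0.17), and its call was lost in the fit of all 12 libraries (adjusted p = 0.143). RD26, a NAC factor, rose by 0.64. The direction was not shared by all ABA-induced members, since RD20, a caleosin, fell by 0.81, the NAC factor NAC019 by 0.92, the raffinose-pathway gene GolS2 by 0.75, LEA14 by 0.62 and ERD7 by 0.52.

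Among 24 tested genes of ABA perception and signalling, 10 rose and 8 fell (median -0.02). The receptor genes parted. PYL4 had 80.6, 83.7 and 78.9 CPM in cbp80 and 38.6, 34.6 and 36.9 CPM in WT (1.14 ± 0.06), and PYL5 (1.61), PYL2 (1.02) and PYL6 (0.75) rose with it, whereas PYR1 had 23.4, 22.0 and 22.1 CPM in cbp80 and 37.7, 40.3 and 36.4 CPM in WT (-0.76 ± 0.07). The PP2C gene HAI1 rose by 1.17 and PP2CA fell by 0.58. The bZIP factors that bind the ABRE parted too. ABF1 and ABI5 fell by 0.90 and 0.82, while ABF4 rose by 0.36, and 29.1% of the exon bases of ABF4 are shared with another gene.

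The windows before COR15A and LTI65 show the elements of one gene that fell and one that rose. Windows are the 300 bases before the annotated gene start in RefSeq TAIR10.1. COR15A lies at chr2:17712331-17712630 on the minus strand, with 2 matches to CCGAC on either strand in capitals.
COR15A: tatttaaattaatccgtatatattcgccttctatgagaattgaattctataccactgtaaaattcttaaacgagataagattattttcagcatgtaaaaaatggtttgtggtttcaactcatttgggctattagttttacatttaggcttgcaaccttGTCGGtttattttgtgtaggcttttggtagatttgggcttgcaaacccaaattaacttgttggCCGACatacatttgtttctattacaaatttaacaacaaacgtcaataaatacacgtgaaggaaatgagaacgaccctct
LTI65 lies at chr5:21236721-21237020 on the plus strand, with 4 matches to ACGTG on either strand in capitals.
LTI65: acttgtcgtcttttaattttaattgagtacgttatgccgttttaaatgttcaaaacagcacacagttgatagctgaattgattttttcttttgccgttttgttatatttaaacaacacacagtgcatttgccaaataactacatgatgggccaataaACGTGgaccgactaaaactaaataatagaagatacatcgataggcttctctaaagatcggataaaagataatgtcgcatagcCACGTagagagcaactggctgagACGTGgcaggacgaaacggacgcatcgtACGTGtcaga
The division was not clean across the list. CCGAC was present in 6 of the 13 windows of genes that fell and in 3 of the 7 of genes that rose, against 13.5% of all gene windows. ACGTG was present in 8 of the 13 and in 6 of the 7, against 24.5% of all. LTI78 held 3 CCGAC and 0 ACGTG matches, COR15A 2 of each, LTI65 1 and 4, and LEA7 1 and 5. The 2 ACGTG matches of COR15A overlap in a single run CACGTG, which reads the same on both strands and so counts as 2. Whether matches of LEA7 overlap in this way was not tested. The motifs were counted separately, so a stretch that holds both counts for each, and a match describes letters, not a binding site.

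**Figure D4:**
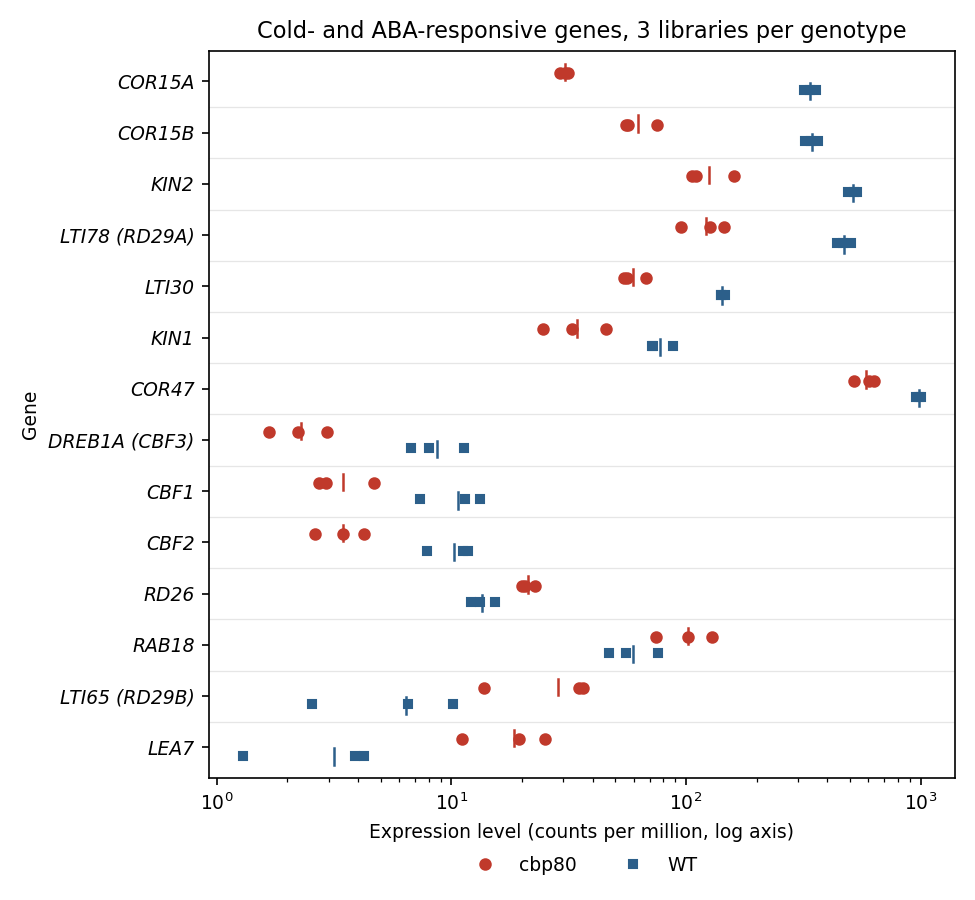
Expression level in CPM (log axis) of 14 cold- and ABA-responsive genes in each of the 3 cbp80 libraries (circles) and the 3 WT libraries (squares), with a tick at each mean. From COR15A to CBF2 all cbp80 points lie to the left of the WT points. RD26, LTI65 and LEA7 lie to the right, and RAB18 overlaps by a single library.

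Several morning genes of the circadian clock were higher and several evening genes lower. The plant clock couples the dawn factors LHY, CCA1 and RVE8 to evening genes such as TOC1, GI, LUX and FKF1, and the dawn factors act on evening genes through the evening element AAAATATCT. The plants had been kept in constant light, and the labels give no hour of sampling. Of 27 clock genes, 13 rose and 10 fell (median 0.25). LHY had 339, 330 and 314 CPM in cbp80 and 130, 130 and 141 CPM in WT (1.29 ± 0.06, edgeR adjusted p = 1.22e-09). RVE1, a dawn factor that raises auxin synthesis, had 133, 139 and 132 CPM in cbp80 and 43.8, 42.5 and 47.5 CPM in WT (1.59 ± 0.06). CCA1 rose by 0.97, RVE8 by 0.82, AT3G54500 (LNK2), a partner of RVE8, by 1.29, and the day-phase repressors PRR5, PRR9 and PRR7 by 1.48, 0.75 and 0.30, the call of PRR7 being lost in the fit of all 12 libraries (adjusted p = 0.121). In the other direction, FKF1, a blue-light receptor of the afternoon that promotes CO transcription, had 14.98, 13.2 and 14.7 CPM in cbp80 and 39.8, 39.5 and 36.1 CPM in WT (-1.43 ± 0.07, edgeR adjusted p = 3.28e-09). PCL1 (LUX) had 29.9, 28.1 and 31.0 CPM in cbp80 and 47.5, 52.3 and 46.6 CPM in WT (-0.71 ± 0.07). BOA, its relative, fell by 0.75, the RNA-binding GRP7 by 0.51, GI by 0.43 and TOC1 by 0.23, with 45.9% of the exon bases of BOA shared with another gene. Not all members followed their phase. The RVE-family gene AT5G52660 was lower (-0.21 ± 0.08, edgeR adjusted p = 0.0448), a call that held only with all 12 libraries and with library size only among the alternatives, and the evening gene ELF3 was not called (0.08 ± 0.06). Whether the 3 replicates of each genotype, or cbp80 and WT, were sampled at the same hour was not tested and cannot be read from the labels. A difference in hour or phase between the genotypes and a change in level cannot be told apart here.

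The evening element AAAATATCT, searched on both strands of the same 300-base windows, was present in 6 of the 10 clock genes that fell (TOC1, PCL1, BOA, FKF1, GRP7 and CCR1) and in 1 of the 13 that rose (PRR5), against 2.65% of all gene windows. Across the table, 4.28% of the windows of all genes that fell and 2.41% of those of all genes that rose held it. The window of FKF1, the clock gene with the deepest fall, is shown with its match, which lies on the other strand, in capitals. It spans chr1:25508339-25508638 on the plus strand of TAIR10.1.
FKF1: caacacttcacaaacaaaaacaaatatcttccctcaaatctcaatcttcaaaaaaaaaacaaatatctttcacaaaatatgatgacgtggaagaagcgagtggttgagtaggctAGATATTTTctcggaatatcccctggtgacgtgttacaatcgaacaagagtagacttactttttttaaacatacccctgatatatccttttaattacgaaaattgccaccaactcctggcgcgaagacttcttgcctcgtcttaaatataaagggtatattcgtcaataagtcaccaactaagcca

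Floral repressors of the FLC family were lower. FLC and its MAF relatives are MADS-box genes that delay flowering by holding down FT and SOC1. FLC had 0 reads in each cbp80 library and 31, 27 and 31 reads in WT, a level at least 9.70-fold lower with cbp80 set at a floor of 3 reads per library. As 68.1% of FLC exon bases are shared with another annotated gene and pairs on shared bases were not counted, this value covers a part of the transcript. FLC passed the count filter through WT alone and could only be lower. MAF1 (FLM) had 7.91, 8.18 and 8.56 CPM in cbp80 and 35.0, 36.5 and 36.8 CPM in WT (-2.13 ± 0.07, edgeR adjusted p = 1.38e-10). MAF4 fell by 2.24 and MAF5 by 2.98, while AGL31 (MAF2) stood at 34.5, 37.6 and 35.6 CPM in cbp80 and 35.4, 36.4 and 36.5 CPM in WT and was not called. CO, the photoperiod factor that activates FT, had 7.44, 6.96 and 6.52 CPM in cbp80 and 0.897, 0.958 and 1.28 CPM in WT (2.73 ± 0.17), with 25.4% of its exon bases shared with another gene. The integrators downstream did not pass the test. FT was near the detection limit at 0.995, 0.659 and 1.16 CPM in cbp80 and 1.08, 1.102 and 1.14 CPM in WT (-0.23 ± 0.27), and AGL20 (SOC1) had 45.8, 45.1 and 47.1 CPM in cbp80 and 51.4, 47.0 and 49.2 CPM in WT (-0.10 ± 0.06). The MADS-box gene AGL24 fell by 0.94 and SEP3, a floral identity gene, rose by 1.14 to 1.84 ± 0.51 CPM in cbp80, against 0.844 ± 0.146 CPM in WT (SD, n = 3 each). In all, 3 of 16 tested flowering genes rose and 6 fell. Not all relatives moved with the named genes, as CPM on the scale of the fit of all 12 libraries shows. The MADS-box gene SVP had 187, 192 and 192 CPM in cbp80 and 159, 158 and 158 CPM in WT. MAF3 had 11.7, 11.8 and 12.6 CPM in cbp80 and 13.5, 14.3 and 12.6 CPM in WT. SEP4 went opposite to SEP3, with 7.16, 8.53 and 9.13 CPM in cbp80 and 14.1, 12.2 and 12.3 CPM in WT.

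**Figure D5:**
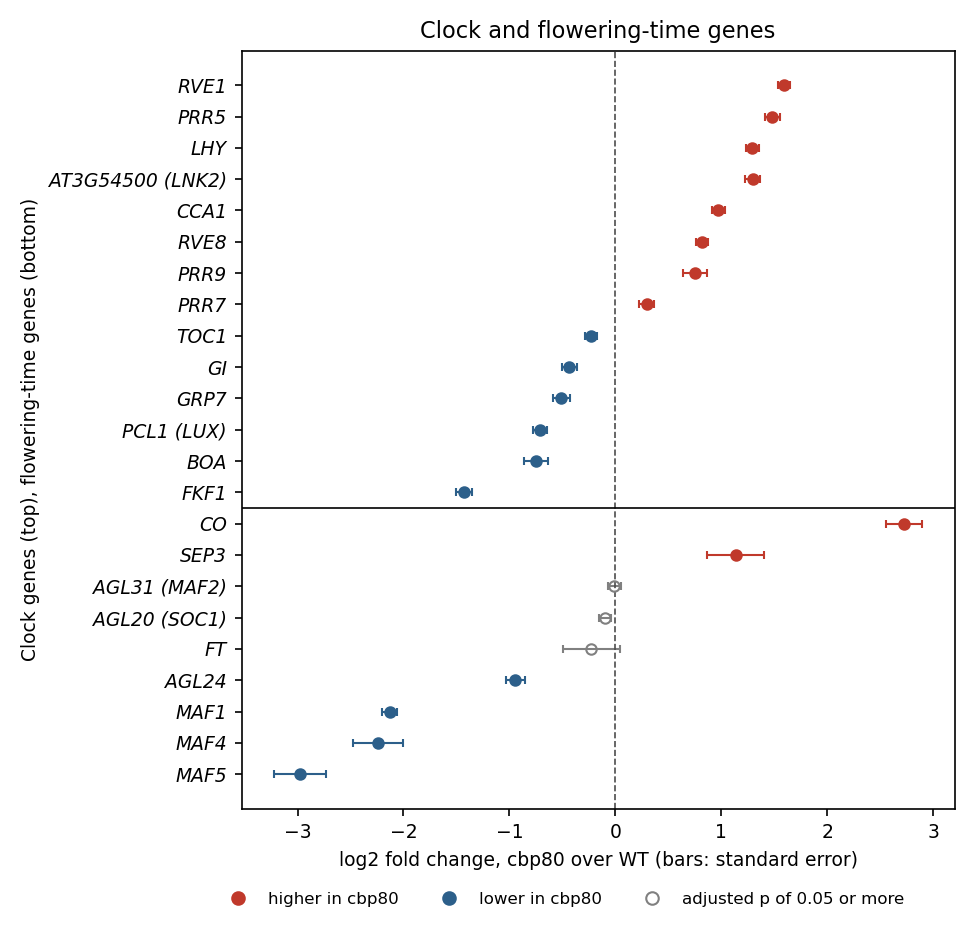
The log2 fold change of cbp80 over WT with its standard error for 14 clock genes (top) and 9 flowering-time genes (bottom). Filled points passed the test. From RVE1 (1.59) to PRR7 (0.30) the clock genes were higher in cbp80 and from TOC1 (-0.23) to FKF1 (-1.43) lower, and among flowering genes CO stands apart from MAF1, MAF4 and MAF5.

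Light-harvesting genes of photosystem II were higher. Of 47 tested nuclear genes for photosystem subunits, Rubisco small subunits and Rubisco activase, 23 rose and 4 fell, with a median of 0.15 (0.07 with library size only). CAB2, which encodes a major antenna protein, had 4771, 4950 and 4891 CPM in cbp80 and 1733, 1511 and 1978 CPM in WT (1.48 ± 0.09, edgeR adjusted p = 1.63e-08). CAB1, a near-identical neighbour of CAB2, was not called (-0.08 ± 0.08), so how reads were divided between the copies is uncertain. The LHCB2 genes rose together, LHCB2.1 by 1.39 and LHCB2.3 by 1.84, with 40.6% of the exon bases of LHCB2.3 shared. LHCB3 had 1064, 1042 and 1240 CPM in cbp80 and 518, 465 and 623 CPM in WT (1.06 ± 0.10), and LHCA4 of photosystem I rose by 0.87. PSBQ-2, of the oxygen-evolving complex, fell by 0.32. Nuclear ribosomal protein genes, without those whose product name gives an organelle, shifted slightly. Organellar members whose product name does not say so may remain among them. Of 297 tested, 79 rose and 9 fell, with a median of 0.11. With library size only, the median was 0.03, and 38 rose and 26 fell.

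Defence genes under salicylate did not move as a group, and the size of the highest rise, that of PR1, depended on 1 library. Of 25 such genes, 8 rose and 6 fell (median 0.08, or 0.00 with library size only). PR1, the classical marker of the salicylate response, had 8.85, 80.2 and 5.78 CPM in cbp80 and 1.21, 1.102 and 0.868 CPM in WT (4.89 ± 0.99, edgeR adjusted p = 0.00141), and its log2 fold change was 2.77 without cbp80 replicate 2. The same library was the highest for BGL2 (PR2), a glucanase, at 10.6, 29.1 and 11.1 CPM in cbp80 and 4.44, 6.08 and 4.98 CPM in WT (1.71 ± 0.33, or 1.08 without cbp80 replicate 2), and its call was lost in the fit of all 12 libraries (adjusted p = 0.0788). PR5 had 19.2, 31.9 and 14.8 CPM in cbp80 and 6.19, 7.43 and 6.03 CPM in WT (1.74 ± 0.23). For all these genes the other cbp80 libraries also lay above WT. EDS16 (ICS1), which makes salicylate, rose by 0.57, and ACD6, a positive regulator of the response, fell by 1.05. Of 59 tested WRKY transcription factor genes, 18 rose and 6 fell (median 0.23). WRKY22, known from flagellin signalling, had 21.7, 24.3 and 20.6 CPM in cbp80 and 5.34, 6.04 and 4.704 CPM in WT (2.05 ± 0.11), and WRKY49 (2.73), WRKY28 (1.39) and WRKY53 (1.33) rose too.

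A cluster of lipid-transfer-like genes on chromosome 4 rose as a block. The cluster was picked after its values were seen, and all 6 members were higher. AZI1, required for the priming of defence in distant leaves, had 352, 271 and 263 CPM in cbp80 and 49.9, 83.6 and 49.4 CPM in WT (2.28 ± 0.17). EARLI1 had 158, 133 and 139 CPM in cbp80 and 22.0, 24.7 and 22.6 CPM in WT (2.64 ± 0.08, edgeR adjusted p = 4.29e-11). Their neighbours AT4G12500 and AT4G12490 rose by 3.98 and 3.80, with 35.9% of the exon bases of AT4G12490 shared with another gene. Cytochrome P450 genes, by contrast, leaned lower, with 62 falls and 25 rises among 163 tested (median -0.18). CYP702A5 had 4.45, 3.43 and 3.66 CPM in cbp80 and 28.2, 26.6 and 27.8 CPM in WT (-2.85 ± 0.10), and CYP706A7 fell by 2.61 and CYP71B24 by 2.35.

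The study asked how SERRATE acts on genes without introns, so the cbp80 changes were also counted by number of introns. The intron classes used here were set after values were seen, and no test was made between them. Among protein-coding genes without introns, 21.6% were higher and 20.8% lower, against 19.0% and 17.9% of those with 6 or more introns. Changes of at least 2-fold were found in 5.44% (higher) and 4.79% (lower) of intronless genes, in 4.35% and 4.46% of those with 1 intron, in 3.51% and 2.79% of those with 2 to 5 and in 2.63% and 1.23% of those with 6 or more. The median log2 fold change lay between -0.02 and 0.00 in every class. Expression level was not matched between the classes.

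The mutant of the other cap-binding subunit was compared with cbp80 directly, in a fit of all 12 libraries in which WT cancels. Of 20882 genes tested, 1251 were higher and 870 lower in cbp80 than in cbp20, which is 10.2% of tested genes (5.99% higher and 4.17% lower, edgeR). CBP20 itself was 1.65 ± 0.08 higher on the log2 scale in cbp80 than in cbp20 (edgeR adjusted p = 3.8e-09). Without cbp80 replicate 2, the counts were 768 and 492. Of 60 MIRNA hairpins tested here, 8 were higher in cbp80 and 0 lower (median 0.44), among them MIR156c (0.72 ± 0.09). MIR158a differed by 0.61 ± 0.18, MIR168a by 0.57 ± 0.14 and MIR171a by 0.62 ± 0.14, all higher in cbp80. Among the snRNA genes 4 of 8 were higher and 0 lower. The filter of this fit took 10 or more counts in any 3 of the 12 libraries, so a gene could pass through cbp80 alone. U2.5, for one, had 0.778, 0.839 and 0.576 CPM in cbp80 and 0.184, 0.181 and 0.483 CPM in cbp20. Genes that passed in this way could hardly be lower, which limits the counts of both the MIRNA and the snRNA genes.

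Genes of the lipid-transfer cluster and of the cold response were among those with large differences between the mutants. On the scale of this fit, EARLI1 had 157, 132 and 138 CPM in cbp80 and 22.6, 29.5 and 40.9 CPM in cbp20 (2.21 ± 0.31). MLO12, which restrains powdery mildew resistance, had 33.9, 29.5 and 24.5 CPM in cbp80 and 5.51, 7.23 and 7.84 CPM in cbp20 (2.11 ± 0.21). In the other direction, PP2-A1 had 2.18, 2.98 and 2.55 CPM in cbp80 and 29.1, 31.3 and 29.5 CPM in cbp20 (-3.53 ± 0.11, edgeR adjusted p = 3.48e-12). COR15A had 30.2, 31.2 and 28.8 CPM in cbp80 and 199, 130 and 131 CPM in cbp20 (-2.35 ± 0.17), and COR15B, LTI78 and KIN2 were lower by 1.89, 1.35 and 1.21. Among jasmonate genes 8 were lower and 1 higher, led by VSP1 (-1.41) and LOX2 (-1.34). Of the clock genes 7 were higher, LHY by 0.81 and CCA1 by 0.60, and 7 were lower, FKF1 by 0.99. The repressors MAF5 (-2.32), MAF4 (-1.49) and MAF1 (-1.07) were lower in cbp80, and CO was higher by 0.48. Among nutrient genes, 2 phosphate genes were higher and 2 lower than in cbp20, and 1 iron gene each way. AT4 differed by -0.01 ± 0.21 and IRT1 by -0.07 ± 0.18, differences smaller than their errors, which does not show that the genes respond alike in both mutants. Of 298 ribosomal protein genes tested, 0 passed the edgeR threshold in either direction.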

How the data were processed

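Gene-level read counts of 12 whole-seedling libraries were used as deposited. Per the authors, poly(A)-selected RNA was made into ScriptSeq v2 libraries, rRNA and tRNA reads were removed with Bowtie2 2.1.0, pairs were aligned to TAIR10 with TopHat2 2.1.1 and pairs on exons were counted with featureCounts, without strand and without pairs that aligned to several places. Copies, overlapping genes and antisense genes are therefore uncertain, and 9805 of 32833 genes share exon bases with another gene. Deposited tables of the authors' DESeq2 comparisons (fold changes and p-values, version 1.14.1) were not used.

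The 3 cbp80 and 3 WT libraries were fitted with edgeR 4.0.16 (quasi-likelihood test after TMM, R 4.3.3, a filter of 10 or more counts per gene in 3 or more libraries, Benjamini-Hochberg adjusted p under 0.05). The method was run on simulated data in which a small share of genes was changed by known folds. A share of changed genes as large as the one called here was not simulated, so that run does not check the scaling. Values are CPM on the TMM scale, and the SE of a log2 fold change was taken from the F statistic. The cbp80 and cbp20 libraries were compared in a fit of all 12. The labels number replicates without stating separate cultures, so p-values measure the spread between these libraries, and no batch or date is given. Members and gene lists were chosen with earlier results of these data known. Named genes were the 10 largest rises and falls among called genes at 5 CPM or more without overlap, up to 4 called members per list and direction at 1 CPM or more, and textbook members. Alternatives were DESeq2 1.42.0, library size only, no filter, all 12 libraries, a replicate block and omission of each library. RefSeq TAIR10.1 was matched by locus tag for 32536 genes.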

Additional observations from a re-analysis of the deposited data

How the results depend on the processing

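Counts of genes higher and lower in cbp80 than in WT were 4125 and 3830. They were 3574 and 3083 with DESeq2, 4121 and 3893 with all 12 libraries, 4296 and 4089 without the filter, 3130 and 5529 with library size only, and 3357 to 3748 and 3127 to 3471 with 1 library left out. Against cbp20 (1251 and 870) they were 1228 and 796 with DESeq2, 1018 and 1144 with library size only, and 768 to 1102 and 492 to 693 with 1 library left out, lowest without cbp80 replicate 2. Same-numbered cbp80 and WT libraries correlated at -0.05, 0.03 and 0.04 across genes in their deviations, so no pairing by replicate number was seen over all genes. Pairing in single genes was not tested, and LTI65 and LEA7 were lowest in replicate 2 of each genotype. The cbp80 and cbp20 libraries were not checked in this way. A replicate block gave 4057 and 3757 genes against WT and 1342 and 936 against cbp20. Of 212 genes named from the comparison with WT and tested, 186 were called, 161 of these in all 11 alternatives. 8 lost the call in at least 1, and the other 17 kept it wherever they were tested but fell below the count filter in some fits. With 1 library left out 168 to 183 were called. No called gene reversed. Among genes not called, 7 changed sign: DCL1 was 0.0017 with DESeq2 and -0.028 to 0.047 with 1 library left out, CYP71A13 0.064 with the block and -0.53 to 0.34, MIR162a -0.014 with library size only and -0.17 to 0.27, TAS1A -0.16 to 0.036, PAD3 -0.78 to 0.31, JAZ10 -0.35 to 0.070 and AGL31 -0.040 to 0.021. ORA59, JAZ7, TAS1C and AGL20 were called lower with library size only. Of 24 lists (those described other than the miRNA machinery, the lipid-transfer cluster, SAUR, auxin and cell-wall genes and glutathione transferases, with NLR, plastid and cold-stress factor genes added), 14 had a median above that of all genes. With 1 library left out 12 to 15 did, with snRNA genes, which have no tested member without a cbp80 library, counted as not above. The MIRNA median was 2.02 with all libraries, and precursors near the count filter leave the test when a cbp80 library is omitted. Genes with a few reads per library, such as MIR173, MIR161 and FT, are limited by depth.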

Other observations

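Flavonoid genes leaned higher in cbp80. Of 17 tested, 9 rose and 2 fell (median log2 fold change 0.25), and against cbp20 8 were higher and 0 lower (edgeR adjusted p under 0.05). MYB111, a flavonol regulator, rose by 1.15, the ligase 4CL3 by 0.84 and chalcone synthase, TT4, by 0.70, while the glucosyltransferase UF3GT fell by 1.94 and the entry enzyme PAL1 by 0.65. Of 14 tested SAUR genes, auxin-induced growth genes, 3 rose and 7 fell (median -0.38), with SAUR15 at -2.35 and SAUR24 at -1.82. Of 25 auxin response genes, 7 rose and 7 fell (median 0.00). Among Aux/IAA repressor genes IAA29 and IAA6 fell by 2.58 and 2.48, while IAA2 and IAA16 rose by 0.47 and 0.41. Among cell-wall loosening genes, 8 of 24 expansin genes rose and 3 fell. EXPB2 had 3.51, 4.75 and 3.95 CPM in cbp80 and 0.449, 0.335 and 0.411 CPM in WT (log2 fold change 3.33), and EXPA1 had 190, 176 and 179 CPM in cbp80 and 93.5, 80.1 and 80.1 CPM in WT (edgeR adjusted p = 2.2e-08). Of 28 tested XTH genes, which encode xyloglucan-modifying enzymes, 9 rose and 2 fell (median 0.11). TCH4 rose by 0.70, while XTH25 had 1, 2 and 1 reads in cbp80 and 26, 35 and 28 reads in WT, too few in cbp80 to give the size of its fall. XTH25 passed the count filter through WT alone and could only be lower. Of 42 glutathione transferase genes, 7 rose and 15 fell (median -0.12).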
